A study of Homo sapiens with 9 samples.

Results

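Complement is a set of plasma and membrane proteins that tags and lyses microbes and foreign cells. The classical arm starts when C1r and C1s, a pair of serine proteases, are activated in the C1 complex, which the serpin C1 inhibitor shuts down. All arms converge on the protein C3, and factor B joins its product C3b to form the alternative-pathway convertase that amplifies it. Host cells are protected by factor I, a protease that cuts C3b, by CD46, its membrane cofactor, by CD55, which takes convertases apart, and by CD59, which blocks the terminal pore. The liver makes most plasma complement, and airway epithelial cells secrete part of it locally. Described here are the 9 complement genes C1R, C1S, SERPING1, C3, CFB, CFI, CD46, CD55 and CD59, chosen as a list of symbols and matched to 9 of the 60664 Ensembl gene identifiers of the count table. This list and the lists of other genes below were chosen with earlier results of these data known.

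RNA was sequenced from A549, an established human lung adenocarcinoma line, in 9 libraries: 3 with a hairpin directed at HES1 (shHES1), 3 with one directed at HES4 (shHES4) and 3 with a control hairpin (shCtrl). Both target genes encode helix-loop-helix transcriptional repressors. Every library carries a hairpin, with 1 hairpin name per target. No label ties a replicate to a culture of its own, so a p-value covers the spread between libraries, which may be technical. Totals were 25.6 to 27.6 M estimated counts in shHES1, 22.8 to 24.4 M in shHES4 and 23.9 to 26.4 M in shCtrl. Levels are given as CPM, counts relative to the TMM-scaled library size, and the tests are edgeR's quasi-likelihood test with Benjamini-Hochberg adjustment over all 16903 genes tested, called at an adjusted p under 0.05.

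The targeted genes were read first. HES1 stood at 9.11, 6.40 and 8.32 CPM in the libraries labelled shHES1 and at 6.99, 6.55 and 7.17 CPM in shCtrl, so it was not lower where the label says it was targeted (log2 fold change 0.20 ± 0.12, SE; edgeR adjusted p = 0.345). HES4 stood at 20.4, 17.1 and 16.6 CPM in shHES4 and at 21.3, 25.4 and 27.7 CPM in shCtrl (-0.46 ± 0.10, edgeR adjusted p = 0.00992), and was lower in the libraries labelled shHES1 too (-0.59 ± 0.10, edgeR adjusted p = 7.60e-04). The HES4 call in shHES4 ended without shHES4 replicate 2 or 3 (adjusted p = 0.0549 and 0.0619). HES1 thus goes against its label, and shHES1 below means the libraries so labelled, not cells shown to have lost HES1.

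Of 6 epithelial markers, 3 were called in shHES1 against shCtrl, KRT19 higher (log2 fold change 0.73, edgeR adjusted p = 8.22e-08) and KRT8 and KRT18 lower (-0.14 and -0.29, edgeR adjusted p = 7.95e-04 and 2.98e-06). In shHES4, KRT19 (0.54, edgeR adjusted p = 6.31e-06) and KRT8 (0.10, edgeR adjusted p = 0.0176) were higher. EPCAM was low, at 2.19, 1.42 and 1.48 CPM on average in shHES1, shHES4 and shCtrl, and the 6 markers summed to 6502 to 6693, 7579 to 7960 and 7283 to 7318 CPM per library. The 6 leukocyte markers summed to 4.27 to 5.19 CPM in shHES1, 3.36 to 4.30 CPM in shHES4 and 3.23 to 3.62 CPM in shCtrl, so shHES1 lay above shCtrl. Most of that sum was CD14 (4.36, 3.54 and 3.15 CPM on average, edgeR adjusted p = 0.0538 in shHES1 against shCtrl), and the pan-leukocyte marker PTPRC had at most 1 count in a group. The 5 fibroblast markers, most of whose counts were those of COL1A1, summed to 16.3 to 17.4 CPM in shHES1, 9.51 to 10.5 CPM in shHES4 and 11.2 to 15.2 CPM in shCtrl, and the 4 endothelial markers to at most 1.48, 1.81 and 1.44 CPM. Relative to shCtrl, COL1A1 was higher in shHES1 (log2 fold change 0.50, edgeR adjusted p = 0.00446) and lower in shHES4 (-0.69, edgeR adjusted p = 0.0012). The mitochondrial share of counts was 6.53 to 6.69% in shHES1, 5.89 to 6.16% in shHES4 and 6.23 to 7.16% in shCtrl, so shHES4 lay below shCtrl. The part of these markers and of the mitochondrial share in the results below was not tested. The 6 hepatocyte markers summed to at most 0.434, 0.487 and 0.646 CPM per library in shHES1, shHES4 and shCtrl, with APOA2 and SERPINA7 at 0 counts.

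The 9 genes differed widely in level. Levels per kilobase of merged exon compare genes only roughly, since the exons of all annotated transcripts count towards the length. The SD between libraries does not cover an error in that length. On this scale C3 was the highest, at 116 ± 2.10, 88.2 ± 1.15 and 86.7 ± 2.17 CPM per kb in shHES1, shHES4 and shCtrl (SD, n = 3 each). In shCtrl the level per kb then ran through CD46 (57.3 ± 0.960), C1S (54.2 ± 1.83), CFB (38.5 ± 1.61), CD55 (35.1 ± 0.387), C1R (34.6 ± 1.29) and CD59 (22.2 ± 1.09 CPM per kb). CD55 and C1R did not differ beyond their spread, and neither did the lowest pair, CFI at 0.422 ± 0.119 and SERPING1 at 0.380 ± 0.106 CPM per kb. These 2 genes were covered by few reads, 36 to 126 rounded counts per library for CFI and 22 to 68 for SERPING1. In the libraries labelled shHES1 the levels per kb of CD55 and C1R did not overlap, at 27.1 ± 0.305 for CD55 and 41.9 ± 1.64 CPM per kb for C1R.

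**Figure D1:**
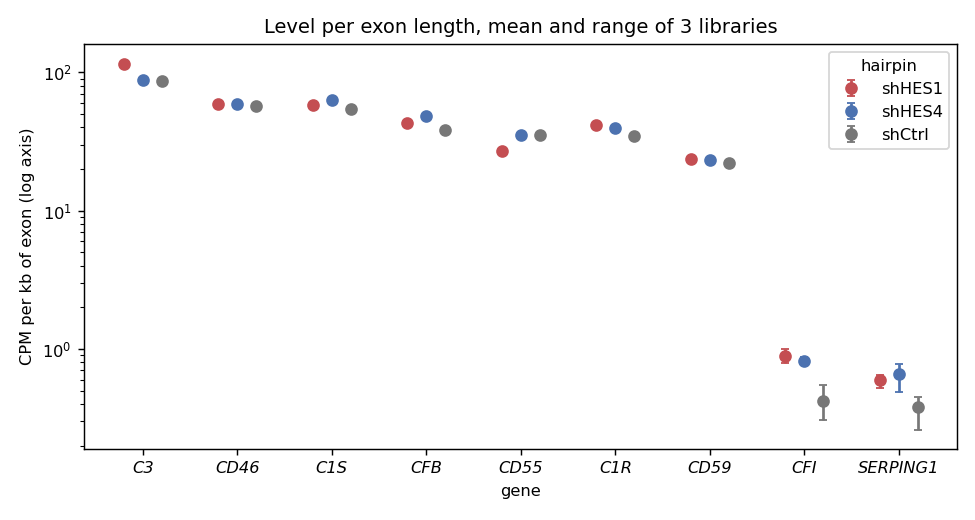
Level of the 9 complement genes in CPM per kilobase of merged exon (log axis), with points for the mean and bars for the range of 3 libraries of shHES1, shHES4 and shCtrl. CFI and SERPING1 lie below 1 CPM per kb in all 3 groups, and C3 in shHES1, at 116 CPM per kb, is the highest point.

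Promoters are shown for 4 genes that rose or fell in at least 1 comparison, since a hairpin against a repressor raises the question of which recognition sequences lie at their starts. Each is the 250 bases before the RefSeq gene start (GRCh38.p14), 5′ to 3′ on the gene's strand: CFB at chr6:31945845-31946094 (plus), CFI at chr4:109802000-109802249 (minus), C1R at chr12:7092446-7092695 (minus) and CD55 at chr1:207321428-207321677 (plus).
CFB: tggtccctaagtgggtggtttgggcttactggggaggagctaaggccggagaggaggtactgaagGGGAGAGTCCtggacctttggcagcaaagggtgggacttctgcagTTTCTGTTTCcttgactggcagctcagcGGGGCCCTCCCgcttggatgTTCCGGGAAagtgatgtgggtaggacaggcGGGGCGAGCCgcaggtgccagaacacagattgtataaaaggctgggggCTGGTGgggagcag
CFI: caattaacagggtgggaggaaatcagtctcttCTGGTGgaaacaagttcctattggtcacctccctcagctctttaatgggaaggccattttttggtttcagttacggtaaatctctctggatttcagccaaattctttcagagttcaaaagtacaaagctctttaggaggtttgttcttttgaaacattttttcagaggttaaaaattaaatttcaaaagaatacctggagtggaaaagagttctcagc
C1R: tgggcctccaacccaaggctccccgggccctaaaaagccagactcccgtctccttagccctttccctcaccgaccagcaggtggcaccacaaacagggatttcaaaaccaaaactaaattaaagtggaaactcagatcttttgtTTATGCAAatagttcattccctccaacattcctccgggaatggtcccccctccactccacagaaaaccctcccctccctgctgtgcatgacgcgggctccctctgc
CD55: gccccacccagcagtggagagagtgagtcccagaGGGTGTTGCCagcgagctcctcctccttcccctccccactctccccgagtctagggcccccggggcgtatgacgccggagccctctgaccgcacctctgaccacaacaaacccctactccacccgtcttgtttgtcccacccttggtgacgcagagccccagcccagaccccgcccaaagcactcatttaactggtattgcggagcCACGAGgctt
Capitals mark matches, on either strand, to any of 6 motifs, and neighbouring or overlapping matches run together.

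The motifs were the N-box CACNAG and the class C site CACGCG, both bound by HES proteins, GGG and CC separated by any 5 bases for NF-kB, the gamma-activated site TTCNNNGAA of STAT factors, the interferon-stimulated response element (GAAA, any 2 bases, GAAA) and TTGCNNAA for C/EBP factors. Promoters were matched for 6 of the 9 genes (CFB, CFI, C1R, CD46, CD55 and CD59, with C3, C1S and SERPING1 named only). An N-box stood in 4 of the 6, CFB, CFI, CD46 and CD55, against 32.0% of all 35116 promoter windows of this length. The bases that follow the CD46 window were not found in its annotated transcripts, unlike those of the other 5 genes. The CD46 window ends at 207752037, before the GENCODE gene start at 207752057, so the bases just after it precede the gene as positioned there. By the GENCODE positions given below, the CFB and CD55 windows lie inside the gene. Those of CFI, C1R and CD59 overlap the gene in part. No window of the 6 held a class C site, which 9.72% of all windows hold. The CFB window was the one with matches to most motifs: 4 overlapping or separate NF-kB positions beside 1 gamma-activated site at -92 to -84 and 1 interferon-stimulated response element at -140 to -131 from the RefSeq gene start. Over all windows these 3 motifs were found in 54.4%, 6.57% and 3.02%. C1R held a C/EBP match at -106 to -99 (9.05% of all windows), and CD55 an N-box at -10 to -5. A match describes the letters of these windows and shows no binding.

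All 9 genes passed the filter on low counts. In the libraries labelled shHES1, C3, CFB, CFI, C1R and C1S rose and CD55 fell relative to shCtrl, and CD46, CD59 and SERPING1 did not pass the test. These are 5 higher and 1 lower of 9, where 9.73% of all tested genes were called, 5.25% higher and 4.48% lower. In shHES4, CFB, CFI, C1R and C1S rose relative to shCtrl, so that 4 of 9 were called, each of them higher, where 5.94% of all tested genes were called, 3.24% higher and 2.70% lower. Between the hairpins, C3 was higher in shHES1 than in shHES4 while CFB, C1S and CD55 were lower, 1 higher and 3 lower of 9, where 15.1% of all tested genes were called, 7.41% higher and 7.65% lower. The libraries did not overlap for 9 of 9 genes in shHES1 against shCtrl (27.6% of all tested genes), for 6 of 9 in shHES4 against shCtrl (22.4%) and for 5 of 9 between the hairpins (33.0%). The median log2 fold change of the 9 genes was 0.16 in shHES1 and 0.20 in shHES4 relative to shCtrl, beside -0.00276 and 0.00103 for all tested genes. Both comparisons use the same 3 shCtrl libraries. Since the 9 genes were chosen with earlier results of these data known, these counts describe them and are no test of the set. The shares of all tested genes run over every level and were not matched to the levels of the 9. In bulk RNA, fewer cells that express a gene and less of its RNA per cell cannot be told apart.

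**Figure D2:**
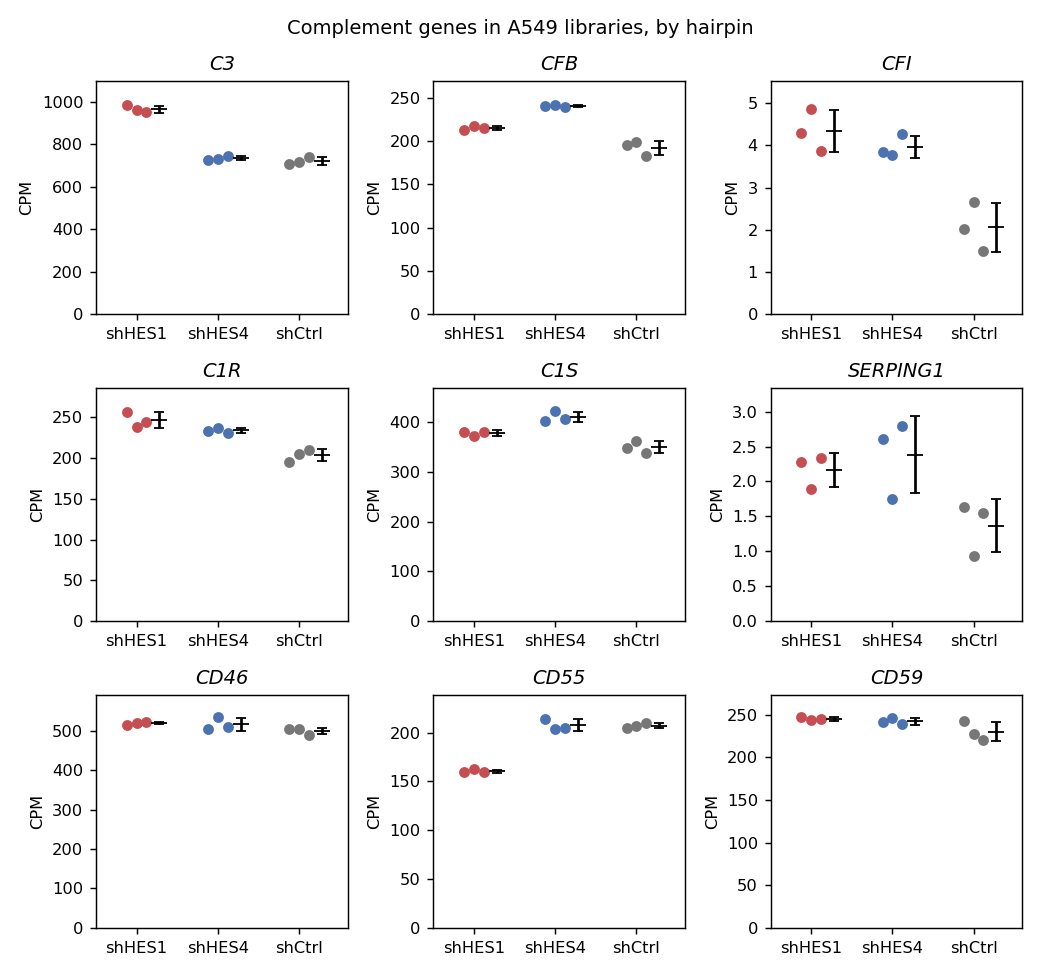
CPM of each complement gene in the 3 libraries of shHES1, shHES4 and shCtrl (points), with the mean and SD (bar) beside them; every axis starts at 0. C3 and CD55 stand apart in shHES1 only, while CFI and C1R lie above shCtrl in both shHES1 and shHES4.

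C1R, on the minus strand of chromosome 12 from 7080199 to 7092607 (GRCh38, GENCODE release 29), encodes the protease that activates C1s. It had 257, 238 and 244 CPM in shHES1, 234, 237 and 231 CPM in shHES4, and 195, 205 and 210 CPM in shCtrl. All libraries of both shHES groups lay above those of shCtrl. The rise was 0.27 ± 0.04 on the log2 scale in shHES1 (edgeR adjusted p = 5.65e-05), and in shHES4 the rise was 0.20 ± 0.04 (14.8%, edgeR adjusted p = 0.00210). The direct difference of shHES1 minus shHES4 was 0.08 (95% interval -2.98e-04 to 0.15) and did not pass (edgeR adjusted p = 0.183). C1R shares 672 exonic bases, 11.4% of its exonic length, with its neighbour C1RL on the same strand, and carried fractional counts in 9 of 9 libraries. The estimated counts of C1RL came to 16.8% of those of C1R, so the split of reads between the genes is uncertain.

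C1S, on the plus strand of chromosome 12 from 6988259 to 7071032 beside C1R, encodes the protease that cleaves C4 and C2. It had 382, 373 and 382 CPM in shHES1, 403, 423 and 407 CPM in shHES4, and 349, 363 and 340 CPM in shCtrl. The 3 groups did not overlap, with shHES4 the highest. C1S rose by 0.11 ± 0.03 in shHES1 (edgeR adjusted p = 0.0322). Its rise in shHES4 was 0.23 ± 0.03 (edgeR adjusted p = 1.72e-04), and shHES1 was 0.12 ± 0.03 below shHES4 (log2 fold change -0.12, edgeR adjusted p = 0.0168). The smaller rise, in shHES1, lost its call without shCtrl replicate 1 or 3 or any one of the shHES1 libraries (adjusted p = 0.0806, 0.0712, 0.114, 0.0608 and 0.124), and the direct difference lost it without shHES1 replicate 2 or shHES4 replicate 2 (adjusted p = 0.0826 and 0.0959). The count ratio of C1R to C1S within a library, which no library scaling touches, was 0.674, 0.639 and 0.639 in shHES1, 0.579, 0.561 and 0.568 in shHES4, and 0.561, 0.566 and 0.620 in shCtrl. The 3 shHES1 libraries had the highest ratios of the 9, which is given as a description with no test. C1S shares 229 exonic bases, 3.54% of its exonic length, with EMG1 on the same strand, whose estimated counts came to 19.5% of those of C1S, and C1S carried fractional counts in 9 of 9 libraries, so the split of reads is uncertain for its small differences and for this ratio.

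SERPING1, on the plus strand of chromosome 11 from 57597387 to 57614853, encodes C1 inhibitor, the serpin that inactivates both proteases. It had 2.28, 1.89 and 2.33 CPM in shHES1, 2.61, 1.75 and 2.79 CPM in shHES4, and 1.63, 0.929 and 1.54 CPM in shCtrl. Each shHES library lay above each shCtrl library, but neither difference was called. The log2 fold change was 0.66 (95% interval 0.14 to 1.17, edgeR adjusted p = 0.110) in shHES1 and 0.80 (0.28 to 1.32, edgeR adjusted p = 0.0691) in shHES4. The second passed the test without shHES4 replicate 2 (adjusted p = 0.0382) and without a filter on low counts (adjusted p = 0.0256).

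C3, on the minus strand of chromosome 19 from 6677704 to 6730562, encodes the protein whose cleavage all arms share. It had 985, 960 and 951 CPM in shHES1, 726, 732 and 745 CPM in shHES4, and 706, 719 and 741 CPM in shCtrl. The shHES1 libraries lay above all others, and shHES4 overlapped shCtrl. The rise in shHES1 was 33.7%, or 0.42 ± 0.03 on the log2 scale (edgeR adjusted p = 2.29e-08). In shHES4 the log2 fold change was 0.02 with a 95% interval of -0.03 to 0.08 (edgeR adjusted p = 0.710). The direct difference was 0.39 ± 0.03 (edgeR adjusted p = 1.88e-08). C3 took 0.0989, 0.0974 and 0.0960% of all counts in the shHES1 libraries, against 0.0704, 0.0712 and 0.0729% in shCtrl, and ranked 92nd or 93rd among all genes by count in shHES1 and 139th to 145th in shCtrl.

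CFB, on the plus strand of chromosome 6 from 31945650 to 31952084, encodes factor B, the protease part of the alternative-pathway convertase. It had 213, 218 and 216 CPM in shHES1, 241, 242 and 240 CPM in shHES4, and 183 to 199 CPM in shCtrl. The groups did not overlap and shHES4 was the highest. CFB rose by 0.16 ± 0.03 in shHES1 (edgeR adjusted p = 0.00334). Its rise in shHES4 was 0.33 ± 0.03 (25.3%, edgeR adjusted p = 6.33e-06), and shHES1 lay 0.16 ± 0.03 below shHES4 (log2 fold change -0.16, edgeR adjusted p = 0.00248). C2, whose exons overlap those of CFB by 23 bases on the same strand, had at most 80 estimated counts in a library, and a gene model that spans both, ENSG00000244255, had 0.

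CFI, on the minus strand of chromosome 4 from 109740694 to 109802179, encodes factor I, the protease that inactivates C3b. It had 4.30, 4.85 and 3.88 CPM in shHES1, 3.85, 3.77 and 4.26 CPM in shHES4, and 2.01, 2.66 and 1.5 CPM in shCtrl. Both shHES groups lay above shCtrl and overlapped each other. This was the largest fold change of the 9 genes, 1.08 ± 0.18 on the log2 scale in shHES1 (2.11-fold, edgeR adjusted p = 7.46e-04) and 0.95 ± 0.19 in shHES4 (1.93-fold, edgeR adjusted p = 0.00429). The direct difference was 0.13, with a 95% interval of -0.22 to 0.49 (edgeR adjusted p = 0.677). It rests on 348 rounded counts over the shHES1 libraries, 277 over shHES4 and 152 over shCtrl. CFI shares 1562 exonic bases, 32.0% of its exonic length, with another gene model on the same strand, ENSG00000285330. That model had up to 17.9 estimated counts in a library. Its counts came to 4.59% of those of CFI, so the split of reads between the 2 is uncertain.

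CD55, on the plus strand of chromosome 1 from 207321376 to 207386804, encodes decay-accelerating factor, which dissociates C3 convertases on the cell's own membrane. It had 159, 162 and 159 CPM in shHES1, 214, 204 and 205 CPM in shHES4, and 205, 207 and 210 CPM in shCtrl. The shHES1 libraries lay below all others, and shHES4 and shCtrl overlapped. The fall in shHES1 was -0.37 ± 0.03 on the log2 scale (edgeR adjusted p = 3.76e-07), and the direct difference of shHES1 minus shHES4 was -0.37 ± 0.03 (edgeR adjusted p = 1.84e-07). In shHES4 the 95% interval of the log2 fold change was -0.06 to 0.07. The count ratio of C3 to CD55 within a library was 6.18, 5.91 and 5.97 in shHES1, 3.39, 3.59 and 3.63 in shHES4, and 3.44, 3.48 and 3.54 in shCtrl.

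CD46, on chromosome 1 from 207752057 to 207795513, and CD59, on chromosome 11 from 33703010 to 33736491, encode the other membrane regulators, the cofactor of factor I and the inhibitor of the membrane attack complex. CD46 had 515, 520 and 522 CPM in shHES1, 505, 535 and 509 CPM in shHES4, and 504, 505 and 490 CPM in shCtrl. Both shHES groups lay just above shCtrl, by less than the test could call: the log2 fold change was 0.06 (95% interval -0.00581 to 0.12, edgeR adjusted p = 0.275) in shHES1 and 0.05 (-0.01 to 0.11, edgeR adjusted p = 0.389) in shHES4. CD59 had 247, 243 and 245 CPM in shHES1, 241, 246 and 239 CPM in shHES4, and 242, 228 and 220 CPM in shCtrl. Its log2 fold change was 0.09 (95% interval 0.02 to 0.17, edgeR adjusted p = 0.114) in shHES1 and 0.07 (1.84e-04 to 0.15, edgeR adjusted p = 0.258) in shHES4. The difference in shHES1 was called without shCtrl replicate 1, at 0.13 (adjusted p = 0.0224), and with scaling by total counts, at 0.12 (adjusted p = 0.0446). The direct differences of shHES1 minus shHES4 were 0.00656 for CD46 (95% interval -0.06 to 0.07) and 0.02 for CD59 (-0.06 to 0.09). CD59 shares 629 exonic bases, 6.07% of its exonic length, with another gene model on the same strand, ENSG00000284969. The estimated counts of that model came to 2.97% of those of CD59, which carried fractional counts in 9 libraries.

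**Figure D3:**
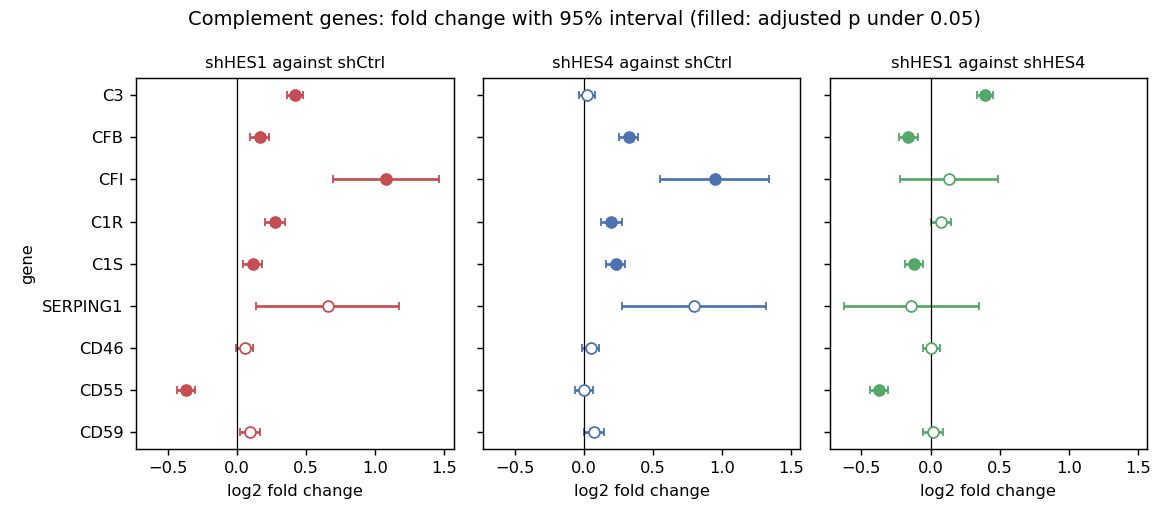
Log2 fold change of the 9 complement genes with its 95% interval, in a panel each for shHES1 and shHES4 against shCtrl and for shHES1 against shHES4; filled points passed an adjusted p of 0.05. CD55 is the only filled point below 0 in shHES1 against shCtrl, at -0.37, and C3 the only one above 0 in shHES1 against shHES4, at 0.39.

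The rest of the pathway was read from a list of 48 other complement genes, of which 23 were high enough to test and 11 had 0 counts in the 9 libraries, the C1q subunit genes C1QA, C1QB and C1QC and the pore genes C8A, C8B and C9 among them. In the libraries labelled shHES1, 1 of the 23 was called relative to shCtrl, C1RL, which was higher, beside 9.73% of all tested genes called. In shHES4, 4 rose and 1 fell (5.94% of all tested genes called), and between the hairpins 1 was higher and 3 lower in shHES1 (15.1%). The median log2 fold change of the 23 was -0.01 in shHES1, 0.19 in shHES4 and -0.17 between the hairpins.

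C1RL, which encodes a C1r-like protease and overlaps C1R, rose by 0.25 ± 0.06 in shHES1 (edgeR adjusted p = 0.00630) and stood at 0.13 ± 0.06 in shHES4 (edgeR adjusted p = 0.213). Whether the rise of C1RL is separate from that of C1R was not tested.

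VTN, which encodes vitronectin, an inhibitor of the terminal pore, was the gene of the list with the largest called difference between the shHES groups. It had 95.8, 92.8 and 97.9 CPM in shHES1, 169, 163 and 160 CPM in shHES4, and 102, 102 and 101 CPM in shCtrl. The rise in shHES4 was 0.69 ± 0.03 (61.1%, edgeR adjusted p = 2.06e-09), the log2 fold change in shHES1 was -0.09 ± 0.04 (edgeR adjusted p = 0.135), and the direct difference was -0.78 ± 0.03 (edgeR adjusted p = 1.03e-10). C5, the precursor of the C5a fragment and of the terminal complex, had 60.4, 61.3 and 64.6 CPM in shHES1, 75.7, 86.7 and 82.2 CPM in shHES4, and 63.7, 64.3 and 67.7 CPM in shCtrl. It rose by 0.32 ± 0.05 in shHES4 (edgeR adjusted p = 4.33e-04) and was not called in shHES1 (-0.07 ± 0.05, edgeR adjusted p = 0.447).

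ITGAX, a subunit of complement receptor CR4, and C2, the partner of C4 in the classical convertase, rose in shHES4 at low levels, by 0.69 ± 0.16 (5.79 CPM in shHES4 and 3.59 CPM in shCtrl on average, edgeR adjusted p = 0.0162) and 0.66 ± 0.17 (3.03 and 1.93 CPM, edgeR adjusted p = 0.0329). The C2 call ended without shCtrl replicate 1 or 3, without any one of the shHES4 libraries (adjusted p = 0.0573 to 0.117 over these), in DESeq2 (adjusted p = 0.0722) and in a fit of shHES4 and shCtrl alone (adjusted p = 0.0578), and that of ITGAX without shCtrl replicate 3 or shHES4 replicate 3 (adjusted p = 0.0597 and 0.0726). C1QBP, whose mainly mitochondrial product binds the C1q head, had 289, 272 and 264 CPM in shHES1, 270, 235 and 222 CPM in shHES4, and 297, 308 and 298 CPM in shCtrl, and fell by 0.31 ± 0.05 on the log2 scale in shHES4 (log2 fold change -0.31, edgeR adjusted p = 0.00127). In shHES1 it stood at -0.13 ± 0.05 (edgeR adjusted p = 0.143). CFD, which encodes the protease that cuts factor B, was called in the direct comparison alone (-0.19 ± 0.06, edgeR adjusted p = 0.0493), a call that ended without any one shHES1 library, without shHES4 replicate 1 or 2, without shCtrl replicate 1 or 2 and under other scalings (adjusted p = 0.0528 to 0.281 over these). CLU, which encodes the terminal-pathway inhibitor clusterin, averaged 245, 260 and 253 CPM in shHES1, shHES4 and shCtrl, with log2 fold changes of -0.04 and 0.04 against shCtrl (edgeR adjusted p = 0.522 and 0.654).

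**Figure D4:**
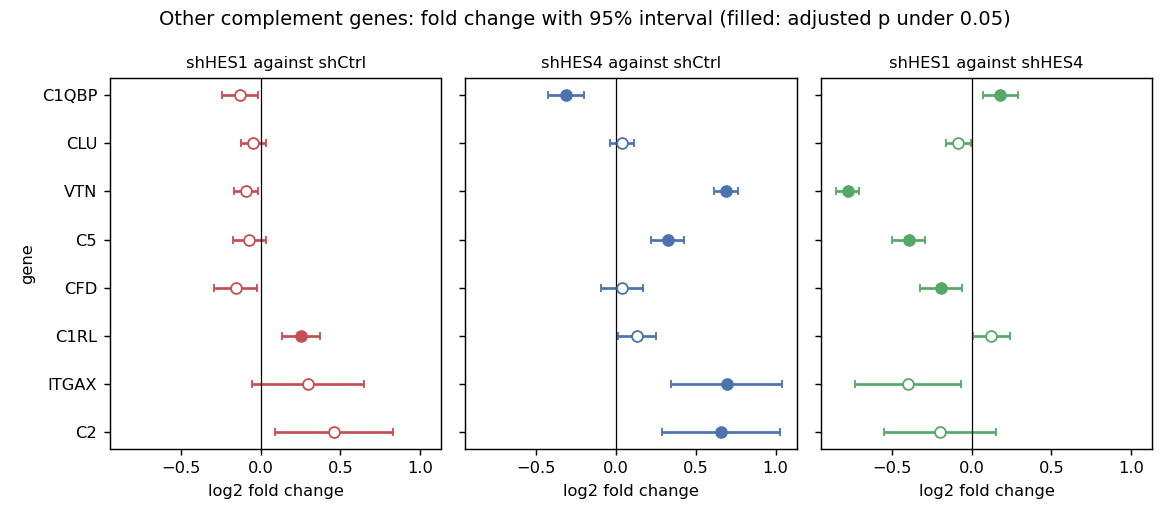
Log2 fold change with its 95% interval of the 8 other complement genes that were called in at least 1 comparison or are among the 5 highest in level; filled points passed an adjusted p of 0.05. VTN lies at 0.69 in shHES4 against shCtrl and at -0.78 in shHES1 against shHES4, and C1RL is the only filled point in shHES1 against shCtrl.

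The genes most like C3 over the 9 libraries were sought among 11321 other named genes with a mean of at least 5 CPM, by the root mean square difference of log2 CPM centred on each gene's mean. They were SH3PXD2B (0.0293), DMKN (0.0385), LRP1 (0.0415) and TRPC1 (0.0428), where C3 itself spans 0.48 on this scale. For CD55, which spans 0.43, they were HACD3 (0.0262), RSL24D1 (0.0285), NAP1L1 (0.0293) and INA (0.0327). These distances describe 9 libraries in 3 groups and carry no test.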

How the data were processed

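The 9 RNA sequencing libraries share a single table of estimated counts by Ensembl gene, as the authors deposited it. Extraction used TRIzol and the libraries a SMARTer kit, per the labels' protocols. Aligner, counter and use of strand: not given in the sources used here. Genome builds named in the submitters' processing notes are of mouse, against human identifiers in the table, so none was used. Fractions stood in 35.5% of values above 0, as where reads are split between genes, so overlapping genes and near copies are uncertain.

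Counts were rounded, filtered with filterByExpr, scaled by TMM factors and fitted over all 3 groups with edgeR 4.0.16 in R 4.3.3 (6 residual degrees of freedom), with Benjamini-Hochberg adjustment over 16903 genes. An SE is the log2 fold change divided by the square root of F, and intervals are 95%. Alternatives were DESeq2 1.42.0, other scalings and filters, the 6 libraries compared alone, a replicate block and leaving out each library. The fit was tested on simulated counts of genes of all levels. It recovered 60% and 54% of 1.25-fold changes in shHES1 and shHES4 against shCtrl, and 100% and 90% of 4-fold changes, with 9 false calls in each. A small change can thus go uncalled. Replicates differed by a chi-square per degree of freedom of 2.31 to 6.36 within groups, more than sampling noise gives. Both values above 4 were those of shCtrl replicate 3. Pairs of a shCtrl and a shHES4 library ran from 5.84 to 10.8, so the closest of them lay nearer than shCtrl replicates 1 and 3 to each other. Pairs of a shHES1 library with one of another group ran from 7.80 to 12.3. Same-numbered libraries deviated from their group means with correlations of -0.05 to 0.05 over all tested genes. No pairing by number was seen, though noise in genes with few counts could hide one. Positions and exonic lengths are from GENCODE release 29 on GRCh38, and promoters from RefSeq (GRCh38.p14).

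The members and lists were chosen with earlier results of these data known. Named were the 9 members; other complement genes called in any comparison or among the 5 highest; of the 8 genes with the smallest adjusted p in a list of transcription factors, receptors and ligands linked to complement transcription, the 6 reported here; and the 4 genes of most similar pattern to C3 and to the other member with the smallest adjusted p. Named in addition, without alternative values, are the other genes of that list of factors that were called relative to shCtrl. These are CEBPA, CEBPB and CEBPD, which fell, and IL6R, OSMR, IL6, IL1R1 and HNF4A, which rose. Motifs and count ratios were chosen after the values were seen. Some other genes are not reported here and are left out of the lists and their counts, but not of the fit.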

Additional observations from a re-analysis of the deposited data

Results flagged for a closer look

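The responses to the hairpins labelled shHES1 and shHES4 differed for 4 of the 9 members and 4 of the 23 other complement genes tested. Of all tested genes, 15.1% were called in this comparison. The test was edgeR's quasi-likelihood test of shHES1 against shHES4. It equals the test of the difference between the changes of the 2 groups from the shared shCtrl libraries. Among the 9 members the log2 difference of shHES1 minus shHES4 was 0.39 for C3, -0.37 for CD55, -0.16 for CFB and -0.12 for C1S. CFB and C1S rose in both groups and rose more in shHES4, while C3 and CD55 were called in shHES1 and not in shHES4. Among the other complement genes the difference was -0.78 for VTN, -0.39 for C5, -0.19 for CFD and 0.18 for C1QBP. The call for C1QBP ended in DESeq2 (adjusted p = 0.0975) and without shHES1 replicate 1 or 2 or shHES4 replicate 2 or 3 (adjusted p = 0.144, 0.0646, 0.112 and 0.150). Over 16 alternatives, the call between the hairpins was lost in 10 for CFD and in 2 for C1S.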

How the results depend on the processing

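Of the 9 members, 5 to 7 were called in shHES1 and 3 to 5 in shHES4 relative to shCtrl over the alternatives, against 6 and 4, and 3 to 4 between the hairpins, against 4. CFI and SERPING1 were not tested at a mean of at least 5 CPM. Of 1188 alternative values for single named genes, 1113 kept direction and side of the threshold, 43 lost a call, 13 gained one and 19, all uncalled, changed sign. Without one library, shHES1 minus shHES4 ran over -0.00568 to 0.0352 for CD46. In shHES4 against shCtrl it ran over -0.0240 to 0.0141 for CD55 (-0.00540 without a filter), -0.0615 to 0.112 for CFD and -0.0185 to 0.0200 for IFNGR1 (-0.00158 with DESeq2 size factors, -0.00155 in DESeq2, -0.00803 without a filter). STAT2 in shHES1 ran over -0.0424 to 0.00712 (0.00935 with total counts). The replicate number as a block, though no pairing by number was seen, gave 5 members called in shHES1, 5 in shHES4 and 4 between the hairpins. It gave 1443, 850 and 2297 genes in all, against 1644, 1004 and 2546. Under that block C1S in shHES1 (adjusted p = 0.0517), C2 and IRF9 in shHES4 (0.0525 and 0.0582) and CFD between the hairpins (0.0567) lost their calls and SERPING1 in shHES4 gained one (0.0417). Genes called in shHES1 numbered 1084 to 1800 without one library, the lowest without shHES1 replicate 2. Of the other complement genes, 3 were called in shHES1 with no filter or in a fit of shHES1 and shCtrl alone, against 1, and 3 in shHES4 at a mean of at least 5 CPM, against 5. Without one library they numbered 1 to 3 in shHES1 (3 without shHES4 replicate 1), 3 to 5 in shHES4 (3 without shCtrl or shHES4 replicate 3) and 2 to 4 between the hairpins (2 without shHES1 replicate 1 or 2 or shHES4 replicate 2). The causes were not tested. Scaling by total counts put 68.1% of the calls in shHES1 higher, against 54.0%, and the median of all genes at 0.0248. Low counts limit CFI and SERPING1 among the members.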

Other observations

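Of 32 genes for transcription factors, receptors and ligands that textbook biology links to complement transcription, 31 were tested. In the libraries labelled shHES1 3 rose and 1 fell, in shHES4 7 rose and 2 fell, and in shHES1 against shHES4 4 were higher and 6 lower, beside 9.73%, 5.94% and 15.1% of all tested genes called. The gene that fell in shHES1 was CEBPA (log2 fold change -0.51, edgeR adjusted p = 0.0142). Those that fell in shHES4 were CEBPB and CEBPD (-0.64 and -0.57, edgeR adjusted p = 0.00484 and 0.00969). All 3 encode C/EBP factors, and none was called relative to shCtrl in both groups. CEBPA stood at -0.12 in shHES4 (edgeR adjusted p = 0.662). In shHES1, CEBPB and CEBPD stood at -0.36 and -0.26 (edgeR adjusted p = 0.0796 and 0.201). IL6R and OSMR rose in shHES1 (0.28 and 0.14, edgeR adjusted p = 0.0187 and 0.0117). IL6, IL1R1 and HNF4A rose in shHES4 (0.29, 0.22 and 0.43, edgeR adjusted p = 0.0033, 0.0213 and 0.042). The interferon signalling genes STAT2 and IRF1 rose by 0.36 ± 0.04 and 0.22 ± 0.04 and the NF-kB subunit gene NFKB2 by 0.23 ± 0.03 on the log2 scale in shHES4 (edgeR adjusted p = 1.62e-05, 0.00446 and 1.97e-04). The libraries labelled shHES1 had log2 fold changes of -0.02, -0.04 and -0.06 for these genes, none called (edgeR adjusted p = 0.848, 0.666 and 0.270). IRF9 rose by 0.19 ± 0.05 in shHES4 (edgeR adjusted p = 0.0366), a call that ended without any one shCtrl or shHES4 library or without shHES1 replicate 3 (adjusted p = 0.0510 to 0.147 over these).

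IFNGR1, a subunit gene of the interferon gamma receptor, had 185, 175 and 198 CPM in shHES1, 133, 136 and 129 CPM in shHES4, and 132, 134 and 132 CPM in shCtrl. It rose by 0.49 ± 0.04 in shHES1 (edgeR adjusted p = 3.39e-07) and stood at 1.59e-04 in shHES4, with a 95% interval of -0.09 to 0.09. ETS1 was called in the direct comparison, at 0.35 ± 0.07 (edgeR adjusted p = 0.00175), with 0.16 in shHES1 and -0.19 in shHES4 against shCtrl, neither of them called (edgeR adjusted p = 0.163 and 0.126).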
